A study of Mus musculus with 22 samples.

Results

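The heat shock chaperones described here are 9 mouse genes, chosen by name: *Hsp90aa1*, *Hsp90ab1*, *Hsp90b1*, *Hspa4*, *Hspa5*, *Hspa8*, *Hspa9*, *Hspd1* and *Hsph1*. They are 9 of 55450 annotated genes. A footprint was counted for a gene when it overlapped the GENCODE span of the gene by at least 1 nt, which gave 236 of the 136207 footprints of all mice. All 9 genes had a footprint in at least 2 of 10 mice and could be tested, as could 9195 genes in all.

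The footprints come from hnRNP A1 CLIPseq of the spinal cord, in which RNA is crosslinked to protein by UV light, recovered with an antibody to hnRNP A1 and sequenced. All mice were wild-type female C57Bl/6 mice. There were 3 naïve mice and 7 mice with experimental autoimmune encephalomyelitis (EAE), induced with complete Freund's adjuvant carrying the myelin peptide MOG(35-55) and with pertussis toxin and taken 15 days after clinical onset. The age at immunization was 12 weeks by the sample labels and 8 weeks by the design text of the series. EAE mice 3, 4 and 7, with clinical scores of 1.5, 1.5 and 1.0, formed the mild EAE group, and EAE mice 1, 2, 5 and 6, with scores of 2.5, 3.0, 2.5 and 3.0, formed the severe EAE group. Each mouse was 1 replicate. Disease, peptide, adjuvant and toxin come together in the EAE mice and cannot be told apart. The antibody clone named in the sample labels differs from the one in the study's methods. Lists of the input RNA and of the IgG pools were not used here.

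The lists differed in length before any gene was considered. The naïve mice had 17119 to 17494 footprints and the mild EAE mice 9751 to 24433. Among severe EAE mice, EAE mouse 5 had 31870, while EAE mice 1, 2 and 6 had 2670, 209 and 673, and every result that includes these 4 mice rests on lists of very unequal length. A list holds only sites left after subtraction of the input and IgG sites, with no read count, so the depth behind a footprint is unknown and a gene without a footprint is one at which none was retained. In whole tissue, fewer cells of a type and less RNA per cell cannot be told apart. Of the fixed tissue markers, 5 of 6 neuronal, 5 of 5 oligodendrocyte and 4 of 4 astrocyte genes had footprints in naïve mice, while the motor neuron gene *Chat* had none in any mouse. Of 8 immune cell genes, 0 had a footprint in naïve mice, 7 had one in mild EAE mice and 6 in severe EAE mice. Summed over the list they took 0 nt per 10000 covered nt in each naïve mouse and 0 to 19.6 nt in EAE mice, with the T cell gene *Cd3e* at 0 in all. The part of this shift in the chaperone values was not tested.

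hnRNP A1 is a mainly nuclear RNA-binding protein that acts in splicing and in the export and translation of mRNA, and the core of the sequence it is known to prefer is UAG. Heat shock chaperones fold newly made proteins and refold damaged ones with energy from ATP. The HSP90 proteins complete the folding of kinases, receptors and other clients, the HSP70 proteins bind short exposed stretches of unfolded chains, the HSP110 proteins release ADP from HSP70, and HSP60 encloses proteins in the mitochondrial matrix. Motor neurons of the spinal cord are known for a high threshold for inducing the stress-inducible HSP70, which is not among the 9 genes.

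The stretches below carry the main patterns of position described further on. Each is part of a region, meaning the union of overlapping footprints of all mice, and is read from GRCm38 on the strand of the gene, 5′ to 3′. Capitals mark TAG, the DNA form of UAG. The first, *Hsp90aa1* exon 4, was footprinted in naïve mice and in EAE mice and was the chaperone region found in the most mice, 7 of 10.
Hsp90aa1 exon 4, chr12:110694571-110694707, minus strand: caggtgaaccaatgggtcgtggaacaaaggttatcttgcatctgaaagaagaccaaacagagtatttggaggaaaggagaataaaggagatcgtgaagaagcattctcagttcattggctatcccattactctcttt

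The next 2 were footprinted in all 3 naïve mice and in 0 of 7 EAE mice.
Hsp90ab1 exon 3, chr17:45571420-45571619, minus strand: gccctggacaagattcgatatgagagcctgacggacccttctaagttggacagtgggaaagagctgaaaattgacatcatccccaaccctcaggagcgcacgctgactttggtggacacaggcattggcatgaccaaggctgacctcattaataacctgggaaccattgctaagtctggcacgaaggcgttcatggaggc
Hsp90b1 exon 13, chr10:86693914-86694078, minus strand: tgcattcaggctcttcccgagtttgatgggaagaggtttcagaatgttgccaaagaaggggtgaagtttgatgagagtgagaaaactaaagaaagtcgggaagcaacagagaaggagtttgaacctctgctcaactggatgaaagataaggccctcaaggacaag

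The next 3 were footprinted in 4 EAE mice and in 0 of 3 naïve mice. The *Hsp90aa1* and *Hspa8* regions also match other places in the genome, described further on, as do *Hsp90aa1* exon 4 above and *Hspd1* exon 10 below. For *Hsp90aa1* only the coding part of the region is shown.
Hsp90aa1 exon 11, chr12:110691543-110691649, minus strand: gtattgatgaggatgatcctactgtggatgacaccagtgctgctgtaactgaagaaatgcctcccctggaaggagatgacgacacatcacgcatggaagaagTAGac
Hspa4 exon 18, chr11:53262273-53262427, minus strand: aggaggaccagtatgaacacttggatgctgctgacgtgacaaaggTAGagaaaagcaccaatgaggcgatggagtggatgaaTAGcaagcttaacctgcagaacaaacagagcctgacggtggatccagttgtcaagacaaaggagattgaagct
Hspa8 exon 6, chr9:40803740-40803942, plus strand: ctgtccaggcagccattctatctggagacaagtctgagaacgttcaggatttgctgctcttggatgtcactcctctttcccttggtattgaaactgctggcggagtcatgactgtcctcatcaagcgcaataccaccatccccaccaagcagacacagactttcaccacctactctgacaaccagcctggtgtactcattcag

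The next 2 are regions found in the most mice for the other HSP110 gene and for the HSP60 gene, and *Hsp90b1* exon 5 is added because it held the most TAG of the stretches read out.
Hsph1 exon 16, chr5:149618746-149618865, minus strand: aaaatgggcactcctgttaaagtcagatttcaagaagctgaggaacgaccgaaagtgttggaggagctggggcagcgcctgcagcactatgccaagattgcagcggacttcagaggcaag
Hspd1 exon 10, chr1:55079113-55079230, minus strand: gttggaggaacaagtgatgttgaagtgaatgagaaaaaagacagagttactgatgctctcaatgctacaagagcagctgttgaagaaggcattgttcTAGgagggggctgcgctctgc
Hsp90b1 exon 5, chr10:86701873-86702028, minus strand: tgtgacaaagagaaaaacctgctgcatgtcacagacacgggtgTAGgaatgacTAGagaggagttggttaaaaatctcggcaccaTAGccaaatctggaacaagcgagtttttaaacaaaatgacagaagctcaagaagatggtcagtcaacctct

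TAG was present in only some of these stretches. It was absent from *Hsp90aa1* exon 4, from both regions seen only in naïve mice, from *Hspa8* exon 6 and from *Hsph1* exon 16, and it occurred 3 times in *Hsp90b1* exon 5. Over the 68 chaperone regions that lie wholly in coding sequence there were 37 TAG in 7187 nt, or 0.515 per 100 nt, against 0.546 per 100 nt over all 30456 such regions of the 10 mice. A TAG was present in 36.8% of the chaperone regions and in 35.6% of all. For the lengths printed or considered for printing, with a tolerance of 10%, between 33.0% and 76.4% of all coding regions held a TAG on the strand of their gene. By gene the density ran from 0 over 707 nt of *Hspa9* to 2.11 per 100 nt over 284 nt of *Hspd1*, the latter with 6 TAG in 3 regions. These are matches of 3 letters on the strand of the gene, and describe the sequence only.

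The chaperone footprints lay almost wholly in annotated exons. Over all mice, 24302 nt were covered in the 9 spans, of which 91.4% were coding sequence, 3.61% 5′ UTR, 2.16% 3′ UTR, 1.26% exons of transcripts without a coding sequence and 1.55% intron. In each of the 9 mice with a chaperone footprint, the intronic share was lower than over all protein-coding genes of the same mouse. The chaperone share was at most 10.2%, in naïve mouse 2, where that of all coding genes was 53.2%. In naïve mouse 1 the shares were 1.09% and 55.1%, in EAE mouse 3 they were 0.897% and 22.4%, and in EAE mouse 5 they were 0.0179% and 34.5%. Introns made up a median of 67.6% of the 9 spans (range, 24.2 to 86.4%) and of 84.8% of the spans of 9999 footprinted coding genes, and the part of this difference in the shares was not tested. The 3′ UTR share was 0.619% in the naïve group, 4.93% in the mild group and 0.242% in the severe group, where in mild EAE the 3 mice gave 4.76%, 8.42% and 3.59%. All 3 were above the naïve mice, which had 0, 0 and 1.20%, and EAE mouse 5 had 0.286%. Of the 151 nt of 3′ UTR in EAE mouse 4, 146 nt came from 1 footprint in *Hsp90ab1*. Over all protein-coding genes the groups overlapped, with 4, 7 and 6.68% in naïve mice and 5.29, 4.88 and 7.17% in mild EAE mice. There the severe EAE mice 1, 2, 5 and 6 had 13.8, 17.5, 9.92 and 22.2%, above both other groups.

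**Figure D1:**
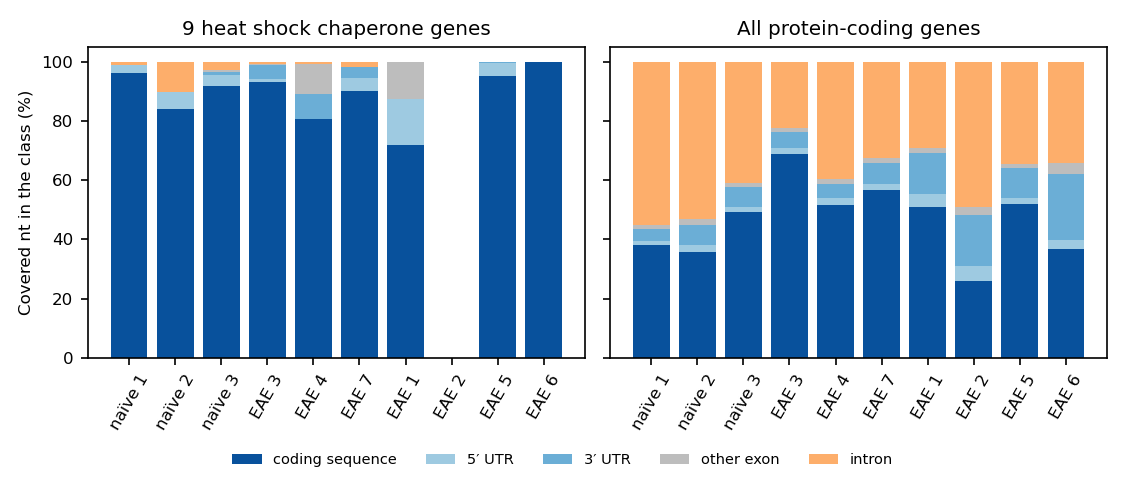
Stacked bars give the percentage of covered nt in each annotation class for every mouse, in the 9 chaperone genes (left) and in all protein-coding genes (right). EAE mouse 2 had no chaperone footprint, and in the other 9 mice intron took at most 10.2% of the chaperone nt.

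Many footprints stopped exactly at the edge of an exon. An end on an annotated splice junction was found for 196 of 236 chaperone footprints (83.1%), against 52.7% of footprints in all protein-coding genes. Among footprints that touched coding sequence the figures were 85.2% and 80.3%. In 88 cases, 2 footprints of the same mouse ended on the 2 sides of the same intron, with the most in EAE mouse 5 (26), naïve mouse 3 (17) and EAE mouse 7 (16). *Hsp90b1* had 19 such pairs and *Hsp90aa1* 17. The authors aligned assembled contigs in spliced mode, and a contig that crosses a junction would give 1 footprint on each side. The lists do not hold the contigs, so whether a pair came from 1 contig was not tested. Chaperone footprints were 16 to 421 nt long with a median of 96.5 nt, against a median of 119 nt over all footprints, and 29 were exactly 1 whole exon.

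Covered nt in the 9 genes together ranged widely between mice. The naïve mice had 2946, 1113 and 4344 nt, the mild EAE mice 3232, 1794 and 4266 nt, and the severe EAE mice 1, 2, 5 and 6 had 681, 0, 5600 and 326 nt. Naïve mouse 2 was the lowest naïve mouse with a list as long as the other 2, and it had the fewest mapped unique reads of the 10 immunoprecipitations in the study's sequencing summary. Per 10000 covered nt of the same mouse, the 9 genes took 13.3, 5.42 and 19.9 nt in naïve mice, 20.9, 15.5 and 14.3 nt in the mild group and 20.6, 0, 13.5 and 42.9 nt in severe EAE. On this scale the groups averaged 12.8 ± 7.23 (SD, n = 3), 16.9 ± 3.50 (SD, n = 3) and 19.3 ± 17.9 (SD, n = 4), and their ranges overlapped. The 42.9 nt of EAE mouse 6 rested on 5 footprints with 326 nt in all. The number of chaperone genes with a footprint was 8, 6 and 8 in naïve mice, 8, 6 and 9 in the mild group and 3, 0, 9 and 3 in the severe group.

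**Figure D2:**
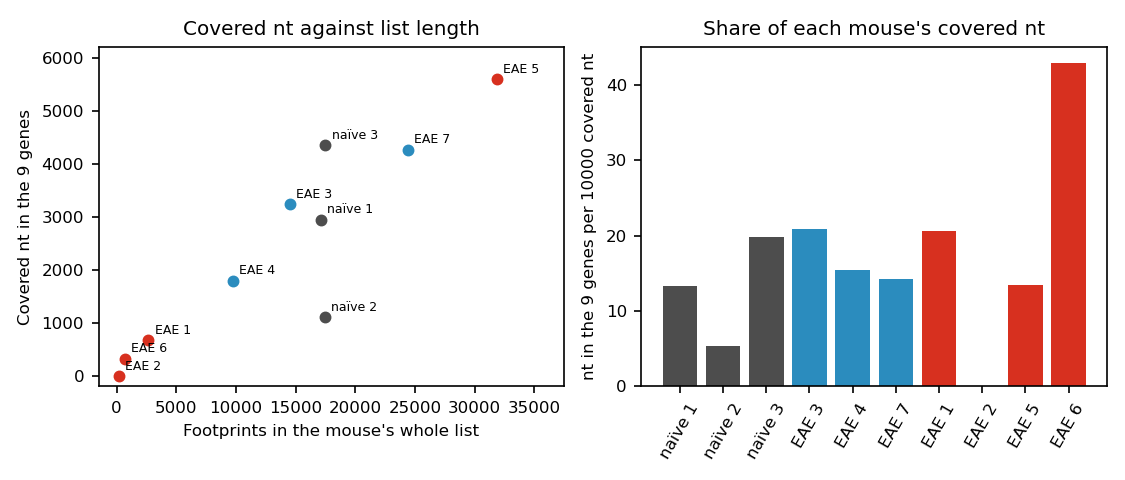
Left, covered nt in the 9 genes against the number of footprints in the whole list of each mouse. Naïve mice are grey, mild EAE mice blue and severe EAE mice red. Right, nt in the 9 genes per 10000 covered nt of the mouse, where the naïve, mild and severe groups overlap and EAE mouse 2 is at 0.

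Relative to exon length, the 2 cytosolic HSP90 genes were covered most. On average over 10 mice, 13.6% ± 10.9 (SD) of the annotated exon length of *Hsp90aa1* was covered and 13.1% ± 9.97 of *Hsp90ab1*, followed by *Hsp90b1* (8.35% ± 6.74), *Hspa8* (7.09% ± 6.38), *Hspa5* (5.42% ± 6.47), *Hspa9* (4.01% ± 4.93), *Hspa4* (3.07% ± 3.05), *Hsph1* (2.61% ± 3.09) and *Hspd1* (2.36% ± 5.30). No neighbours in this order differed by more than their SD. Among 9999 footprinted coding genes, 99.0% had a lower share than *Hsp90aa1* and 79.2% a lower share than *Hspd1*. Taken over all mice, the footprints covered 74.2% of the coding sequence of *Hsp90aa1*, 64.2% of *Hsp90ab1*, 57.7% of *Hsp90b1*, 59.6% of *Hspa5*, 57.8% of *Hspa8*, 42.3% of *Hspa9*, 37.1% of *Hspa4*, 35.7% of *Hsph1* and 27.9% of *Hspd1*.

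No chaperone gene passed the test between all EAE mice and naïve mice, and 1, *Hspa9*, passed between severe EAE and naïve mice. The test was a two-sided exact permutation test of covered nt, called at an unadjusted p under 0.05. With Benjamini-Hochberg adjustment over 9195 genes, 0 genes passed in either comparison, so the calls are given unadjusted with the adjusted p beside them. Of all genes tested, 4.52% were called between EAE and naïve mice, against 0 of 9 chaperones. Between severe EAE and naïve mice 2.52% were called, against 1 of 9 chaperones, and the smallest p that these 3 and 4 mice allow is 0.0286. The 2 comparisons share the naïve mice. Scaled to 1000000 mapped unique reads, 3 of 9 chaperones were lower in EAE than in naïve mice at this threshold, *Hsp90ab1*, *Hsp90b1* and *Hsph1*, where 13.4% of all genes were called. With EAE mice 1, 2 and 6 left out, an alternative chosen after the data were seen, 0 of 9 genes were called, against 2.23% of all genes. In that setting 6 of the 9 differences between EAE and naïve mice turned positive, by 1.42 nt (*Hspa9*) to 314 nt (*Hsp90aa1*). Changes of sign over all genes were not counted, so this is not a result about the chaperones. The comparison of severe EAE with naïve mice would then hold 1 severe EAE mouse, with no test. Lower values in EAE were the rule for genes in general: 59.7% of all genes had a lower mean in EAE than in naïve mice and 66.1% a lower mean in severe EAE. The chaperones had a median difference of -79.9 nt for EAE minus naïve mice, against -20.2 nt over all genes tested, and of -150 nt for severe EAE minus naïve mice, against -40.0 nt. These differences were not scaled to coverage, and 79.6% or more of footprinted coding genes had fewer covered nt than each chaperone other than *Hspd1*. As a percentage of all covered nt, *Hspa4*, *Hspa9* and *Hsph1* were lower in EAE than in naïve mice and the other chaperones higher.

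**Figure D3:**
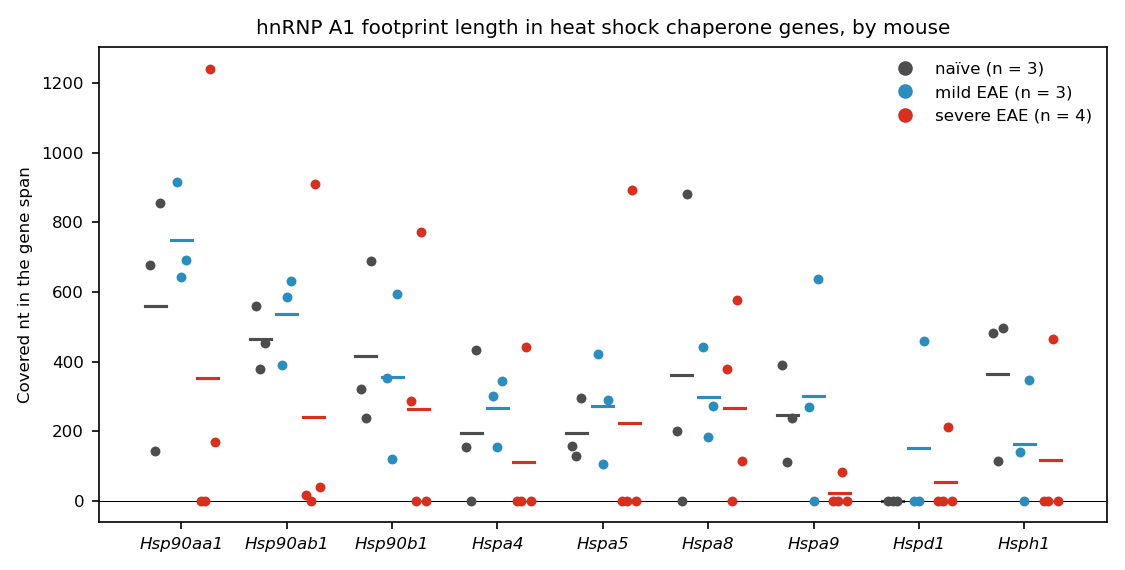
Covered nt in the span of each gene, with 1 point per mouse and a bar at the mean of the group. EAE mouse 5 is the highest severe EAE mouse in all 9 genes, and the 4 severe EAE values of *Hspa9* (0 to 84 nt) lie below the 3 naïve values (111 to 391 nt).

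*Hspa9* encodes mortalin, the HSP70 of the mitochondrial matrix, and lies at chr18:34937414-34954357 on the minus strand. It had 391, 111 and 237 nt in naïve mice, 271, 0 and 636 nt in mild EAE mice 3, 4 and 7, and 0, 0, 84 and 0 nt in severe EAE mice 1, 2, 5 and 6. All 4 severe EAE mice were below all naïve mice, while mild EAE mice lay on both sides. The severe EAE mean was 21 ± 42 nt (SD, n = 4) against 246 ± 140 nt (SD, n = 3), a difference of -225 nt (exact permutation p = 0.0286, adjusted p = 0.883 over all genes). On the log2(nt + 1) scale the difference was -6.17 and the call was lost (exact permutation p = 0.0571). The gap between the groups was narrow, since EAE mouse 5, with the longest list of all, had 84 nt and naïve mouse 2 had 111 nt. Without naïve or severe EAE mice in turn no call is possible, since 3 mice against 3 cannot give a p under 0.1 and 2 against 4 none under 0.0667. Between all EAE mice and naïve mice the difference was -105 nt (exact permutation p = 0.517). Footprints sat at both ends of the coding sequence, with 44.5% of covered coding nt in the 5′ part when it is cut into 3 equal parts, 55.5% in the 3′ part and 0 nt in the middle part. At the 3′ end, exon 16 (chr18:34938584-34938724) was footprinted in all 3 naïve mice (104, 41 and 110 nt) and in EAE mouse 7 (114 nt). At the 5′ end, exon 4 (chr18:34951224-34951405) was footprinted in EAE mice 3, 7 and 5 with 88, 138 and 84 nt and in no naïve mouse.

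*Hsp90aa1* encodes the stress-inducible cytosolic HSP90 and lies at chr12:110690605-110702728 on the minus strand. It had 678, 143 and 857 nt in naïve mice, 916, 644 and 692 nt in mild EAE, and 0, 0, 1242 and 170 nt in severe EAE mice 1, 2, 5 and 6. EAE mouse 5 was the highest of all mice, and the groups overlapped. EAE minus naïve was -35.9 nt (exact permutation p = 0.883, adjusted p = 1) and severe EAE minus naïve was -206 nt (exact permutation p = 0.600, adjusted p = 1). Its footprints fell on exons 2 to 4 and 6 to 11, with 96.1% of covered nt in coding sequence. The region in exon 4 printed above was covered by 118 and 128 nt in naïve mice 1 and 3, by 134, 122 and 127 nt in mild EAE mice 3, 4 and 7, and by 134 and 101 nt in EAE mice 5 and 6. In 5 of these 7 mice a footprint stopped at the same base, 110694704, the edge of the exon, while in naïve mouse 3 and EAE mouse 4 it ran a few bases into the intron, to 110694707. The next exon upstream in the mRNA, exon 3 (chr12:110695052-110695154), was footprinted in 5 mice, naïve mouse 1 and EAE mice 3, 7, 5 and 6, all starting at 110695052, the exon edge.

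Further 3′ in the same mRNA, exon 9 of *Hsp90aa1* (chr12:110692604-110692872) was footprinted in all 3 naïve mice with 215, 143 and 156 nt and in EAE mice 3, 4 and 5 with 245, 188 and 269 nt. Exon 8 (chr12:110693018-110693169) was covered in naïve mice 1 and 3 and in EAE mice 3 and 5, with 139, 152, 146 and 144 nt. Exon 7 (chr12:110693312-110693502) was covered in naïve mouse 3 and in the 3 mild EAE mice, with 82, 105, 81 and 107 nt. In all, 3 regions of this gene appeared in at least 3 EAE mice and in no naïve mouse. In exon 11, around the stop codon (chr12:110691516-110691649), mild EAE mice 3, 4 and 7 had 130, 112 and 131 nt and EAE mouse 5 had 123 nt. In exon 10 (chr12:110692114-110692176), EAE mice 4, 7 and 5 had 18, 23 and 63 nt, and in exon 6 (chr12:110693800-110693876) the same 3 mice had 73, 77 and 73 nt. Exon 10 was covered elsewhere in naïve mouse 3, by 122 nt at chr12:110692326-110692447. The exon 6 region directly adjoins another one (chr12:110693711-110693799), which was footprinted in naïve mouse 3 and EAE mice 3 and 4, so neither exon was free of footprints in naïve mice.

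*Hsp90ab1*, the constitutive cytosolic HSP90 at chr17:45567775-45573271 on the minus strand, had a footprint in 9 mice, more than any other chaperone. It had 560, 378 and 454 nt in naïve mice, 389, 586 and 633 nt in mild EAE, and 16, 0, 911 and 41 nt in severe EAE mice 1, 2, 5 and 6. Severe EAE mice 1, 2 and 6 were below all naïve mice and EAE mouse 5 was above them. EAE minus naïve was -96.0 nt (exact permutation p = 0.675, adjusted p = 1), or -67.4 nt per 1000000 mapped unique reads (exact permutation p = 0.0333), and severe EAE minus naïve -222 nt (exact permutation p = 0.514, adjusted p = 1). Exon 3 held the region seen only in naïve mice (chr17:45571420-45571619, printed above), with 127, 66 and 200 nt in naïve mice 1, 2 and 3. The neighbouring exon 2 (chr17:45571765-45571911) was footprinted in naïve mice 2 and 3 (147 and 88 nt) and also in EAE mice 3, 7 and 5 (43, 90 and 91 nt). Exon 8 (chr17:45569240-45569394) was covered by exactly 148 nt in EAE mice 3, 7 and 5, which is the whole exon, by 155 nt in EAE mouse 4 and by 103 nt in naïve mouse 2. Exon 7 (chr17:45569470-45569826) was covered whole, by 357 nt, in EAE mice 7 and 5, by 165 and 166 nt in naïve mice 1 and 3, and by 28 nt in EAE mouse 3. Exon 10 (chr17:45568296-45568562) was covered by 146 nt in naïve mouse 1, by 267 and 38 nt in EAE mice 4 and 7, and by 41 nt each in EAE mice 5 and 6, the latter pair at the same coordinates. In exon 5 (chr17:45570703-45570799), EAE mice 3, 1 and 5 had 97, 16 and 21 nt and no naïve mouse had any.

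*Hsp90b1* encodes GRP94, the HSP90 of the endoplasmic reticulum, and lies at chr10:86690209-86705509 on the minus strand. The span also holds parts of *1810014B01Rik*, *Gm15344* and *Gm25745*, and the lists carry no strand, so footprints in the overlaps could not be given to one gene. It had 320, 237 and 688 nt in naïve mice, 352, 121 and 593 nt in mild EAE, and 286, 0, 772 and 0 nt in severe EAE. The groups overlapped, with a difference of -112 nt for EAE minus naïve (exact permutation p = 0.583, adjusted p = 1), or -56.6 nt per 1000000 mapped unique reads (exact permutation p = 0.0417), and of -150 nt for severe EAE minus naïve (exact permutation p = 0.571, adjusted p = 1). Exon 13 (chr10:86693914-86694078, printed above) was footprinted by 128, 120 and 165 nt in naïve mice 1, 2 and 3, all with an end at the edge of the exon next to exon 14, and in no EAE mouse. EAE mouse 7 had a footprint of 80 nt in the same exon just upstream in the mRNA (chr10:86694080-86694159), outside the region. The next exon in the mRNA, exon 14 (chr10:86693375-86693513), was footprinted in the same 3 naïve mice (139, 117 and 137 nt) and in EAE mice 4 and 5 (99 and 77 nt). In the plot of the HSP90 mRNAs these footprints form 1 block in each naïve mouse, and the footprints of EAE mice 4 and 5 in exon 14 stopped before the junction with exon 13.

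Toward the 3′ end of *Hsp90b1*, exon 15 (chr10:86692386-86692464) was covered whole, by 79 nt, in naïve mouse 3 and EAE mice 3, 7 and 5, and by 22 nt in EAE mouse 4. Exon 16 (chr10:86692244-86692295) was covered in the first 4 of these mice, by 35, 52, 42 and 50 nt. Toward the 5′ end, exon 5 (chr10:86701873-86702028) had 86 nt in naïve mouse 3 and 156, 110, 54 and 110 nt in EAE mice 3, 7, 1 and 5. Exon 4 (chr10:86702909-86703002) had 52 nt in naïve mouse 3 and 36, 85, 94 and 60 nt in the same EAE mice. Exon 1, with the start codon (chr10:86705307-86705460), was footprinted in EAE mice 7, 1 and 5 (118, 138 and 79 nt) and in no naïve mouse. Of the coding nt covered, 51.7% lay in the 3′ part of the *Hsp90b1* coding sequence and 14% in the middle part, while in *Hsp90ab1* 16.7% lay in the 3′ part and 47.1% in the middle part.

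**Figure D4:**
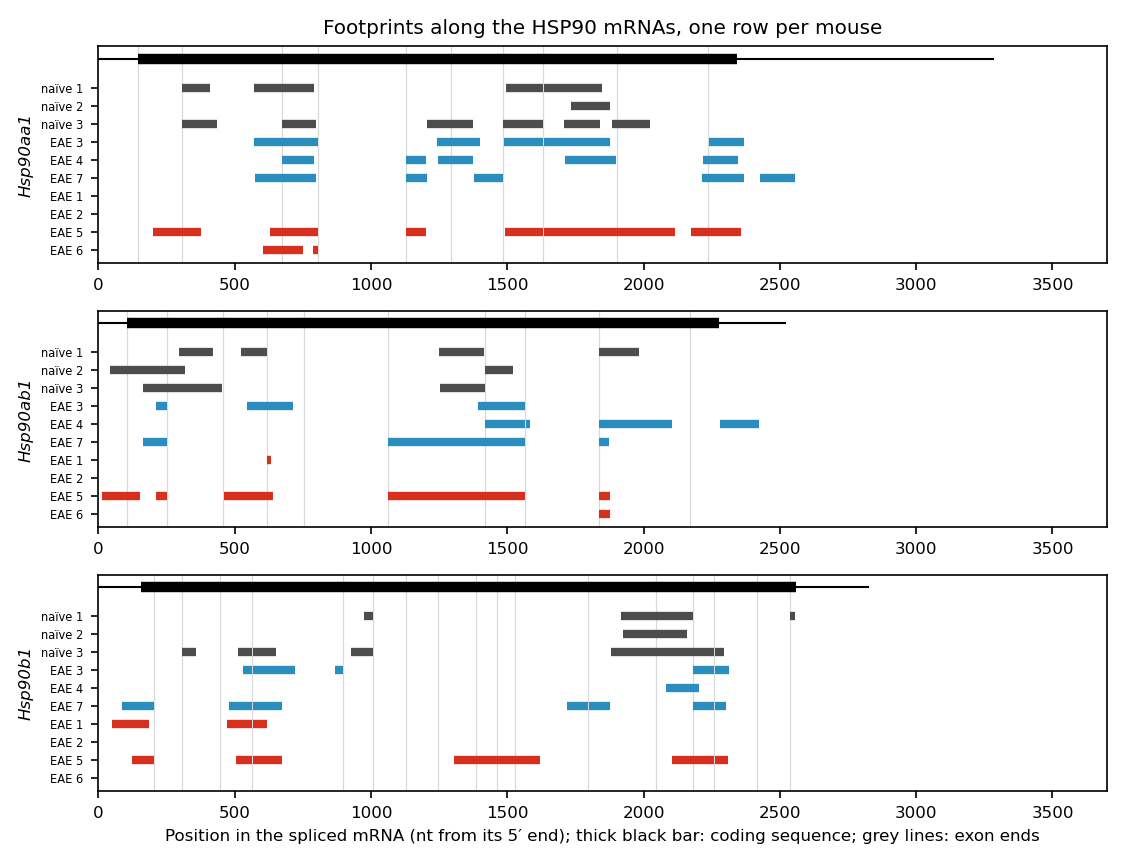
Footprints placed on the spliced mRNAs of the 3 HSP90 genes (x axis, nt from the 5′ end), with 1 row per mouse, naïve in grey, mild EAE in blue and severe EAE in red. EAE mouse 2 has none in any of the 3 genes, and in *Hsp90b1* the 3 naïve mice share a block across exons 13 and 14 of which EAE mice 4 and 5 have only the part in exon 14, going on into exon 15.

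The coding sequences of *Hsp90aa1* and *Hsp90ab1* were compared to see whether the footprints lie at matching places. They aligned over 2171 nt with 76.6% identity. Of the aligned positions, 1631 were covered in *Hsp90aa1* in at least 1 mouse and 1393 in *Hsp90ab1*, and 1173 were covered in both, which is 71.9% of the first set and 84.2% of the second. Of all aligned positions, 64.2% were covered in *Hsp90ab1*, which is the share to set beside the 71.9%. The share covered in *Hsp90aa1* was 75.1%, to set beside the 84.2%. For *Hsp90aa1* and *Hsp90b1*, with 61.8% identity, the shared positions were 67.7% and 86.5% of the 2 sets. Of all positions aligned between them, 59.1% were covered in *Hsp90b1* and 75.4% in *Hsp90aa1*. For *Hspa8* and *Hspa5*, with 66.9% identity, the shared positions were 59.5% and 59.1% of the 2 sets, about the same as the 59.1% and 59.5% of all aligned positions that were covered. For *Hspa4* and *Hsph1*, with 65.4% identity, they were 64.8% and 65.9%, where 37.2% and 36.6% of all aligned positions were covered.

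Among the HSP70 genes, *Hspa8* encodes HSC70, the constitutive cytosolic HSP70, which with auxilin removes the clathrin coat of vesicles. It lies at chr9:40800984-40810087 on the plus strand and hosts the small nucleolar RNAs *Snord14c*, *Snord14d* and *Snord14e*. It had 202, 0 and 881 nt in naïve mice, 441, 183 and 273 nt in mild EAE, and 379, 0, 577 and 115 nt in severe EAE mice 1, 2, 5 and 6. Naïve mice spanned the whole range of the EAE mice, and the differences were -79.9 nt for EAE minus naïve (exact permutation p = 0.700, adjusted p = 1) and -93.2 nt for severe EAE minus naïve (exact permutation p = 0.743, adjusted p = 1). Exon 6 (chr9:40803740-40803942, printed above) was covered whole, by 203 nt, in EAE mice 7 and 5 and by 163 and 162 nt in EAE mice 3 and 1, all ending at the exon edge, and in no naïve mouse. Upstream, exon 2 with the start codon (chr9:40801918-40802127) was covered in naïve mouse 3 (189 nt) and EAE mice 3, 5 and 6 (183, 210 and 115 nt). The 5′ UTR of exon 1 (chr9:40801279-40801348) was covered in naïve mouse 3 and EAE mice 3, 7 and 5 by 68, 28, 70 and 70 nt. All 183 nt of EAE mouse 4 lay in exons of transcripts without a coding sequence, with 0 nt in coding sequence or UTR. The same class held 86 of the 379 nt of EAE mouse 1 and 33 of the 881 nt of naïve mouse 3. Footprints overlapped the *Snord14c* and *Snord14d* intervals, and reads of these RNAs and of the host cannot be told apart here.

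*Hspa5* encodes BiP, the HSP70 of the endoplasmic reticulum and a sensor partner of the unfolded protein response, and lies at chr2:34771970-34777547 on the plus strand. It had 158, 130 and 295 nt in naïve mice, 422, 105 and 289 nt in mild EAE, and 0, 0, 894 and 0 nt in severe EAE. All severe EAE signal came from EAE mouse 5, the highest of all mice, while the other 3 severe mice had none. EAE minus naïve was 50 nt (exact permutation p = 0.875, adjusted p = 1) and severe EAE minus naïve 29.2 nt (exact permutation p = 1, adjusted p = 1). For *Hspa5*, 12 of 20 footprints ended on a junction.

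Of the HSP110 genes, *Hspa4* encodes APG-2 and lies at chr11:53259814-53300457 on the minus strand. It had 154, 0 and 434 nt in naïve mice, 302, 155 and 345 nt in mild EAE, and 0, 0, 443 and 0 nt in severe EAE, with overlapping groups. EAE minus naïve was -18.1 nt (exact permutation p = 1, adjusted p = 1) and severe EAE minus naïve -85.2 nt (exact permutation p = 0.657, adjusted p = 1). Its coverage was concentrated at the 3′ end of the coding sequence, with 81.5% of covered coding nt in the 3′ part. Exon 18 (chr11:53262273-53262427, printed above) was footprinted at the same coordinates by 155 nt in EAE mice 3 and 4, by 98 nt in EAE mouse 7 and by 18 nt in EAE mouse 5, and in no naïve mouse.

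*Hsph1* encodes HSP105 and lies at chr5:149614287-149636376 on the minus strand. It had 483, 114 and 498 nt in naïve mice, 139, 0 and 347 nt in mild EAE, and 0, 0, 466 and 0 nt in severe EAE. Of 7 EAE mice, 4 had none and the highest EAE mouse, EAE mouse 5, was between the naïve mice. EAE minus naïve was -229 nt, the largest difference of the 9 genes in that comparison (exact permutation p = 0.142, adjusted p = 0.956), and severe EAE minus naïve was -248 nt (exact permutation p = 0.171, adjusted p = 1). As a percentage of the covered nt of each mouse the difference for EAE minus naïve passed (-0.0121 percentage points, exact permutation p = 0.0333), where 5.58% of all genes were called. Per 1000000 mapped unique reads it was -61.3 nt (exact permutation p = 0.00833), where 13.4% of all genes were called. In annotated exons only it was -195 nt and did not pass (exact permutation p = 0.267). The 114 nt of naïve mouse 2 lay wholly in an intron. Exon 16 (chr5:149618746-149618865, printed above) was covered by 109 and 48 nt in naïve mice 1 and 3 and by 49 and 120 nt in EAE mice 3 and 5. No covered nt lay in the middle part of its coding sequence, and 65.6% of covered coding nt lay in the 3′ part.

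*Hspd1* encodes HSP60 and lies at chr1:55077835-55088243 on the minus strand, head to head with *Hspe1*, which encodes its partner HSP10. It was the only chaperone gene of the 9 with no footprint in a naïve mouse. EAE mouse 7 had 458 nt and EAE mouse 5 had 211 nt, the mice with the 2 longest lists, and the other 8 mice had 0. EAE minus naïve was 95.6 nt (exact permutation p = 0.767, adjusted p = 1) and severe EAE minus naïve 52.8 nt (exact permutation p = 1, adjusted p = 1). Both mice had footprints in exons 9 and 10, of which exon 10 is printed above.

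**Figure D5:**
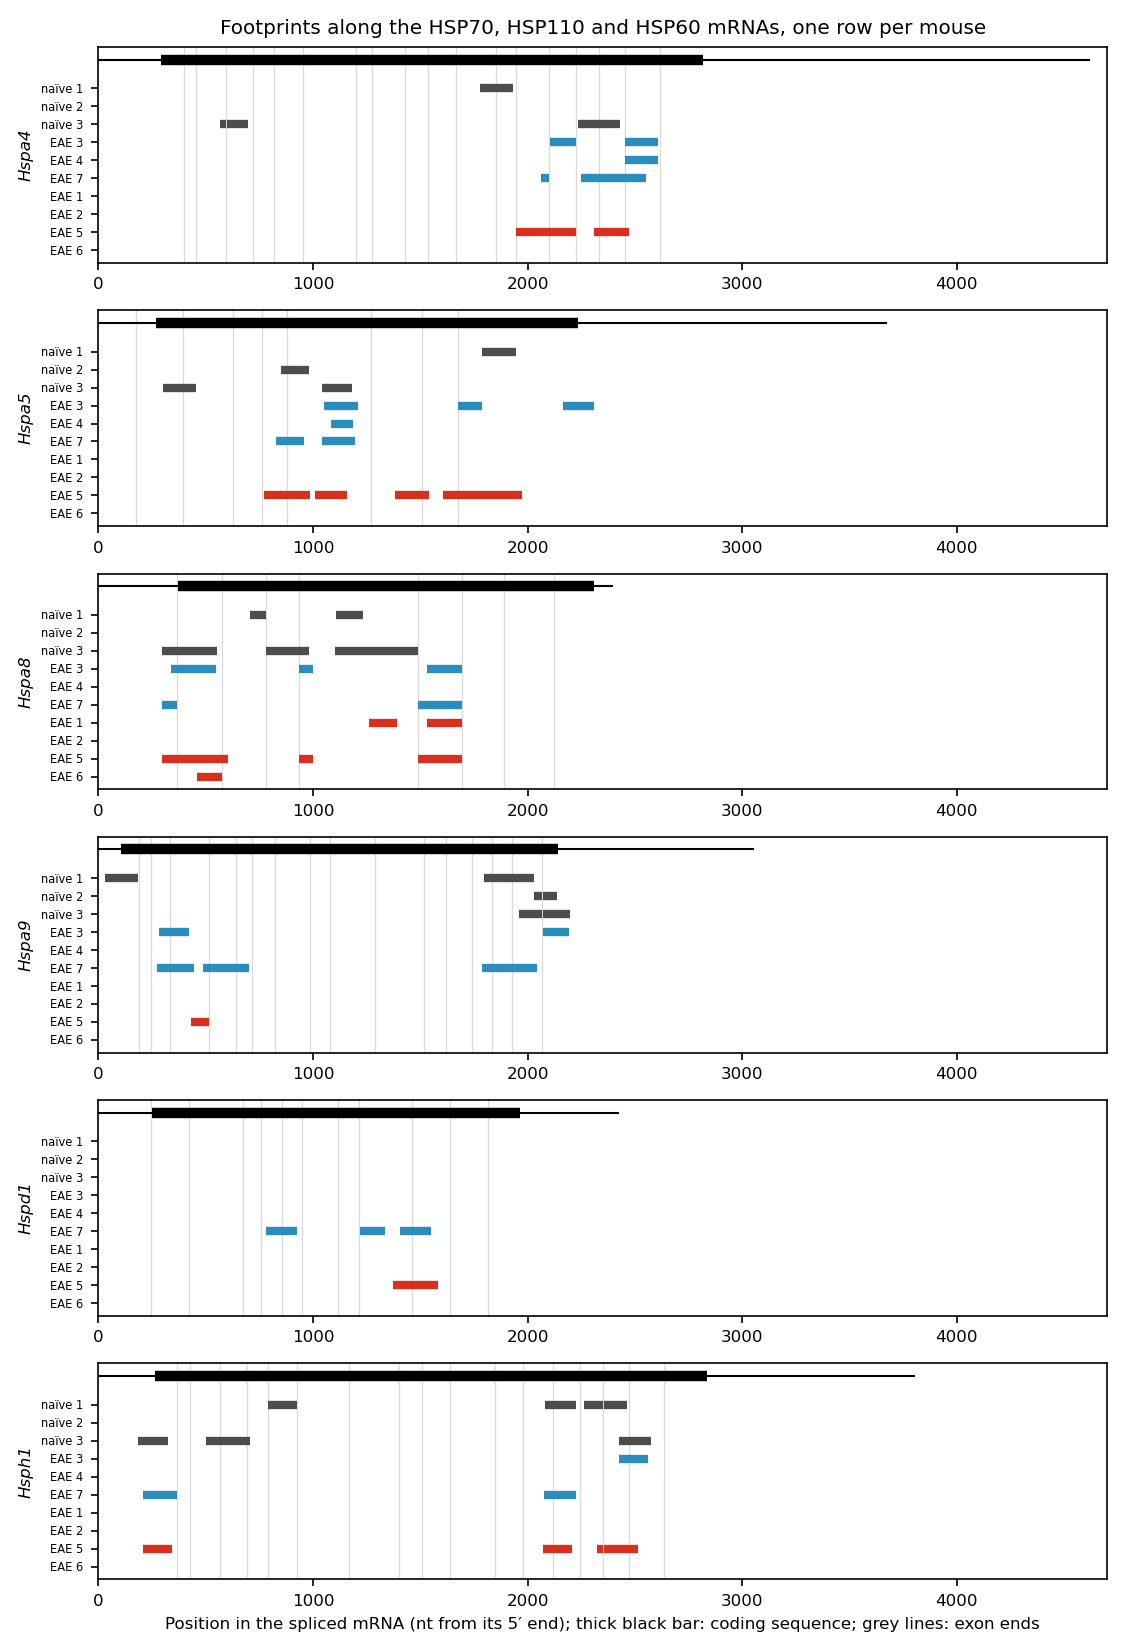
Footprints placed on the spliced mRNAs of *Hspa4*, *Hspa5*, *Hspa8*, *Hspa9*, *Hspd1* and *Hsph1* (x axis, nt from the 5′ end), with 1 row per mouse, naïve in grey, mild EAE in blue and severe EAE in red. *Hspa9* and *Hsph1* have no footprint in the middle part of the coding sequence, and *Hspd1* has footprints in EAE mice 7 and 5 only.

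Between mild EAE and naïve mice, and between severe and mild EAE mice, no test was run, since 3 mice against 3 cannot give a p under 0.1 in the first case and the second was set as a description, and genes whose groups do not overlap were counted. There were 0 of 9 chaperones whose mild EAE and naïve values did not overlap, against 7.69% of all genes, and 0 of 9 for severe against mild EAE, against 2.11% of all genes. The mild EAE mean was above the naïve mean for *Hsp90aa1*, *Hsp90ab1*, *Hspa4*, *Hspa5*, *Hspa9* and *Hspd1* and below it for *Hsp90b1*, *Hspa8* and *Hsph1*. The severe EAE mean was below the mild EAE mean for all 9, by 31.2 nt (*Hspa8*) to 398 nt (*Hsp90aa1*). EAE mouse 5 by itself was above all 3 mild EAE mice for *Hsp90aa1*, *Hsp90ab1*, *Hsp90b1*, *Hspa4*, *Hspa5*, *Hspa8* and *Hsph1*.

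Across the 9 spans, footprints of all mice formed 95 regions, of which 39 (41.1%) came from 1 mouse, against 68.2% of all 82297 regions of the series. Of the chaperone regions 22 were found in 4 or more mice. Among the 44 chaperone regions in at least 3 mice, 2 (4.55%) were in all 3 naïve mice and no EAE mouse, against 1.52% of all such regions, and 8 (18.2%) were in at least 3 EAE mice and no naïve mouse, against 17.8% of all. Besides those given above, no chaperone region met either description.

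Stretches that 2 or more mice of the same group shared were counted because the study used such sharing as its mark of a repeated site. The 9 spans held 14 shared stretches of 1566 nt in the naïve group, 23 of 1925 nt in the mild group and 10 of 655 nt in the severe group. A stretch was shared in 6 of 9 chaperone genes in naïve mice (66.7%), against 30.7% of all genes tested, in 7 (77.8%) in mild EAE, against 36.7%, and in 4 (44.4%) in severe EAE, against 9.76%. Covered nt was not taken into account in these shares, and 79.6% or more of footprinted coding genes had fewer covered nt than each chaperone gene other than *Hspd1*. The longest was 170 nt in naïve mice, in *Hsp90ab1* exon 3 (chr17:45571450-45571619), 168 nt in mild EAE, in *Hsp90aa1* exon 9 (chr12:110692628-110692795), and 162 nt in severe EAE, in *Hspa8* exon 6 (chr9:40803781-40803942). *Hsp90aa1* had 4, 9 and 3 stretches in the 3 groups. *Hspd1* had none in any group, *Hsph1* had 1 in naïve mice only (37 nt in exon 16), and *Hspa4* and *Hspa5* had 1 each in mild EAE only. Of the 14 naïve stretches, 4 (28.6%) overlapped a mild EAE stretch and 1 (7.14%) a severe EAE stretch. Of the 10 severe EAE stretches, 7 (70.0%) overlapped a mild EAE stretch. All severe EAE stretches included EAE mouse 5, since without it 0 were left.

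Several chaperone genes have processed pseudogenes, intronless copies elsewhere in the genome, and these bear on where a contig can be placed. Of the 95 regions, 30 matched at least 1 place outside their own gene at 95% identity or more over at least 80% of their length. These were all 13 regions of *Hsp90aa1*, 8 of 10 in *Hspa8*, 5 of 9 in *Hspa9* and 4 of 5 in *Hspd1*, and 0 of the regions of *Hsp90ab1*, *Hsp90b1*, *Hspa4*, *Hspa5* and *Hsph1*. Of the 83 other places, 54 also carried a footprint in at least 1 mouse. When a mouse had a footprint in one of the 30 regions, it had one at a matching place as well in 63 of 84 cases (75.0%), in 35 of 46 for *Hsp90aa1*, 15 of 21 for *Hspa8*, 7 of 11 for *Hspa9* and 6 of 6 for *Hspd1*. In 12 further cases, 11 of them for *Hspa8*, the mouse had a footprint at a matching place and none in that region of the gene. For *Hsp90aa1* the copies were *Gm5844*, *Gm12346* inside *Ssh2*, and *Gm5511*, with footprints in 8, 8 and 5 mice. The values of these 4 genes are therefore uncertain as to their place of origin. An end on a splice junction was found for 40 of 48 footprints of *Hsp90aa1* and 18 of 24 of *Hspa8*. Whether these footprints came from the gene or from a copy was not tested. The regions of *Hsp90aa1*, *Hspa8* and *Hspa9* seen in at least 3 EAE mice and no naïve mouse all matched such places. Whether placement at a copy played a part in their absence from naïve mice was not tested.

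Of 57 other chaperone and co-chaperone genes listed, 49 had a footprint, 33 of them in at least 1 naïve mouse, 37 in mild and 42 in severe EAE, and 39 could be tested. None was called between EAE and naïve mice (0 of 39, against 4.52% of all genes) or between severe EAE and naïve mice (0 of 39, against 2.52%). The median difference of the 39 was 43.3 nt for EAE minus naïve and 33.5 nt for severe EAE minus naïve, against -20.2 and -40.0 nt over all genes. The 57 genes together had 1393, 0, 16047 and 572 nt in severe EAE mice 1, 2, 5 and 6, so the severe EAE values rest mostly on EAE mouse 5. Some of the 39 had no footprint in a naïve mouse and could be tested only through EAE mice, which raises the median. The 5 with the most covered nt were *Dnajc6*, which encodes auxilin, the clathrin-uncoating partner of HSC70 (516, 332 and 352 nt on average in naïve, mild EAE and severe EAE mice), *Pdia3*, a protein disulfide isomerase (48.0, 495 and 314 nt), *Canx*, which encodes calnexin (279, 429 and 95.5 nt), *Dnajb6*, a J-domain co-chaperone (82.7, 291 and 321 nt), and *Dnajc5*, the J-domain protein of synaptic vesicles (83.3, 434 and 137 nt). Of the 21 co-chaperones listed 18 had a footprint, of the 10 other HSP70 and HSP110 genes 9, of the 8 chaperones of the endoplasmic reticulum 8 and of the 4 other mitochondrial chaperones 2. Of the CCT chaperonin subunits, 4 of 8 had a footprint in naïve mice, and 7 and 8 in mild and severe EAE, and of the small heat shock proteins 1 of 4, 3 and 3. In severe EAE mice 1, 2, 5 and 6 the CCT subunits had 135, 0, 3065 and 115 nt, and the small heat shock proteins 456, 0, 1425 and 0 nt. No share over all genes by group is given for these counts, and the part of list length in them was not tested. The heat shock factors had a footprint in naïve mice for 1 of 2 and in no EAE mouse.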

How the data were processed

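Reads were demultiplexed with bcl2fastq 2.19.0.316 and trimmed with fastp by the authors, who ran rnaSPAdes on them, placed the resulting contigs on GRCm38 by spliced alignment (minimap2 2.17), removed sites of the input and pooled IgG with bedtools and merged the rest without strand. The deposited lists hold chromosome, start and end only. Here 10 lists were intersected with gene spans of GENCODE M21 (GRCm38 patch 6; Python 3.11.15, numpy 2.4.6, scipy 1.17.1, pysam 0.24.0, bedtools 2.31.1). In each mouse the nt of a span under a footprint were summed, and the mean of each group was tested with an exact two-sided permutation with Benjamini-Hochberg adjustment over all genes with a footprint in at least 2 mice. Clinical score set the mild and severe EAE groups, as in the study. Regions are footprints merged over mice, and shared stretches are at least 2 nt covered in at least 2 mice of a group. Copies were sought with blastn 2.17.0, and coding sequences were aligned with Biopython 1.88. The tests were checked on simulated data. Scaling by covered nt or by the mapped reads of the study's sequencing summary, log2(nt + 1), other filters and leaving out mice were tried as alternatives. The 9 genes and the gene lists were chosen with earlier results of these data known. All 9 genes are named, and of the other chaperones the 5 with the most covered nt; described regions are those in at least 4 mice or with a pattern by group. One stretch of sequence is not reported here.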

Additional observations from a re-analysis of the deposited data

Results flagged for a closer look

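EAE mouse 5 stood far from the other severe EAE mice, by the gap to the nearest mouse over the range of the group, for *Hsp90aa1* (1242 nt), *Hsp90ab1* (911 nt), *Hspa4* (443 nt), *Hspa5* (894 nt), *Hspa9* (84 nt), *Hspd1* (211 nt) and *Hsph1* (466 nt), and for the 9 genes together (5600 nt). In each case it was the high mouse, and it also had the longest list of all mice and the most mapped unique reads (10909456). The study itself described this animal as an outlier of the severe group that had been in remission shortly before the end of the experiment. EAE mouse 7 stood apart among all 7 EAE mice for *Hspa9*, with 636 nt. Of 22 groups examined, 9 held such a mouse, 8 of them EAE mouse 5. Chance marks about 1 in 20 independent groups, which does not apply to these, since they share mice and in *Hspa4*, *Hspa5*, *Hspa9*, *Hspd1* and *Hsph1* the other 3 severe EAE mice were all at 0.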

How the results depend on the processing

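Between EAE and naïve mice 0 of 9 genes were called, 1 with covered nt as a percentage of the list (*Hsph1*, with 5.58% of all genes called), 3 per 1000000 mapped unique reads (*Hsp90ab1* -67.4, *Hsp90b1* -56.6 and *Hsph1* -61.3 nt, with 13.4% of all genes), and 0 to 1 when 1 mouse was left out (with 3.51% to 8.29% of all genes; *Hsph1* without naïve mouse 2 or EAE mouse 5, *Hspa9* without EAE mouse 7). Between severe EAE and naïve mice the 1 gene called, *Hspa9*, became 0 on the log2 scale (-6.17, exact permutation p = 0.0571), 0 with mice of the same number paired as a replicate block (-251 nt, exact permutation p = 0.5), and 0 without any 1 mouse, where too few mice are left for a call. The mice are known to share only a number. Same-numbered deviations correlated at -0.00799 to 0.0754 and those of other pairs at -0.0812 to 0.0663, which cannot show whether same-numbered mice shared a batch. Genes whose groups do not overlap numbered 1 for mild EAE against naïve mice per 1000000 reads (10.8% of all genes) and 0 to 1 without 1 mouse (12.2% to 18.4%), and 1 for severe against mild EAE as a percentage (6.48%) and 0 to 4 without 1 mouse (2.14% to 20%), the 4 and the 20% without EAE mouse 5. Shared stretches fell from 14, 23 and 10 in naïve, mild and severe EAE mice to 5, 6 and 0 when 3 mice had to share them, and to 5 to 12, 9 to 17 and 0 to 10 without 1 mouse.

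Signs turned as follows for EAE minus naïve mice. As a percentage of covered nt, *Hsp90aa1* was 0.0304, *Hsp90ab1* 0.00394, *Hsp90b1* 0.00348 and *Hspa8* 0.0312. In number of footprints, *Hsp90aa1* was 0.19 and *Hspa8* 0.0952, and in exons only *Hspa4* was 13.2 nt. *Hspa5* was -16.7 nt per 1000000 reads, -2.74 on the log2 scale and -53.7 nt with the replicate block, and *Hspa8* was 1.19 on the log2 scale. Without EAE mice 1, 2 and 6, *Hsp90aa1* was 314 nt, *Hsp90ab1* 166, *Hsp90b1* 44.5, *Hspa4* 115, *Hspa8* 7.5 and *Hspa9* 1.42 nt. For severe EAE minus naïve mice, the percentages were 0.0379 for *Hsp90aa1*, 0.00718 for *Hsp90b1*, -0.00358 for *Hspa5* and 0.0536 for *Hspa8*. *Hspa5* was -0.25 in footprints, -26.2 nt per 1000000 reads, -5.07 on the log2 scale and -144 nt with the block, and *Hspa8* was 0.334 on the log2 scale and 88.5 nt with the block. Leaving out 1 mouse gave EAE minus naïve differences, of either sign, of -244 to 113 nt for *Hsp90aa1*, -201 to 24.9 nt for *Hsp90b1*, -116 to 101 nt for *Hspa4*, -58.3 to 100 nt for *Hspa5* and -260 to 180 nt for *Hspa8*. It gave severe EAE minus naïve differences of -196 to 33.8 nt for *Hspa4*, -194 to 104 nt for *Hspa5* and -274 to 167 nt for *Hspa8*. The cause was not tested in any of these. With no read counts in the lists, depth per footprint limits every value here in an unknown way.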
